A study of Mus musculus with 19 samples.

Results

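Islets from 6-week-old males of the overgrown morph, *Nnat*+/-p-Heavy, were compared with islets of the normally sized morph, *Nnat*+/-p-Light, with 3 mice and 3 RNA sequencing libraries in each group. These 6 libraries, chosen by their labels, are part of a series of 19. Both groups carry the same deletion on the paternal copy of *Nnat*, an imprinted gene read from the paternal chromosome, so the comparison is between 2 outcomes of 1 genotype and not between genotypes. All were F1 sons of C57BL6/J *Nnat*+/-p fathers and FVBN/J mothers. The deletion is present in every tissue, so it is not a model of a change in islets alone. Islets of 3 WT males of the same cross and age (referred to as WT) are given beside them, and 3 Heavy-like and 3 Light-like mice of 3 weeks are used for side-by-side values at the end. RNA of whole islets was sequenced, so a value is an average over all cells that the preparation held. The labels number the mice as replicates and do not tie them to litters or isolation days.

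Islets hold beta-cells, which make insulin, and fewer alpha-cells (glucagon), delta-cells (somatostatin) and gamma-cells (pancreatic polypeptide). A hormone precursor enters the endoplasmic reticulum (ER) as it is made, is folded by chaperones and disulfide isomerases, moves through the Golgi, and is cut and stored in dense-core granules that release their content when glucose metabolism closes potassium channels and calcium enters. Mature beta-cells keep a group of widely used genes unusually low, among them those for lactate and pyruvate handling, and these are called disallowed genes. Isolated islets also carry endothelial cells, stroma, leukocytes and some attached acinar and duct cells of the exocrine pancreas.

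Values are CPM, the counts per 1000000 counts of a library scaled by TMM factors, and are listed for mice 1, 2 and 3 of a group in that order. A log2 fold change is Heavy over Light with its standard error (SE). A gene was called when edgeR's quasi-likelihood test gave a Benjamini-Hochberg adjusted p-value under 0.05 over all 16463 genes tested, and every adjusted p of a gene is from this test. Of these genes 13.4% were called, 7.0% as higher and 6.41% as lower in Heavy. This background is what the counts within a gene list are read against, together with a median log2 fold change of 0.00 over all genes tested. Total counts lay between 8709150 and 13083247 per mouse. With total counts as the scaling in place of TMM factors the median gene moved by -0.11 on the log2 scale and the share of calls that were higher fell from 52.2% to 33.7%, while no gene called in the main test changed sign. Where a list had no member called in a direction, DESeq2 called at most 2 members in that direction and at most 6 had an unadjusted p under 0.05. The p-values measure the spread between these mice, which may be technical in part.

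*Nnat* itself (chr2:157560078-157562522 on GRCm38) separated the genotypes in every mouse. It was at 0, 0.243 and 0.181 CPM in Heavy, 0.214, 0.198 and 0 CPM in Light and 29.5, 32.6 and 28.3 CPM in WT mice. Both morphs were at or under 3 counts per mouse, so a fold between them cannot be read.

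The 9 libraries of this age did not fall into 3 equal groups. The first principal component held 49.1% of the variance, with Light mice at -41, -32.32 and -28.64, Heavy mice at 57.25, 33.64 and 32.16 and WT mice at -46.81, 7.168 and 18.54. WT mouse 1 thus lay beside the Light mice, while WT mice 2 and 3 lay between the morphs. Heavy mouse 1 lay apart from the other 2 Heavy mice on the second component, which held 14.1% of the variance, at -34.99 against 18.27 and 12.25. Its acinar marker genes summed to 39356 CPM, against 20760 and 17495 CPM in the other Heavy mice.

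To place the WT mice gene by gene, each was given a position between the mean of the Light mice (0) and the mean of the Heavy mice (1) on the log2 CPM scale. Over the 2209 called genes the median position was 0.06 for WT mouse 1, 0.52 for WT mouse 2 and 0.60 for WT mouse 3. The position differed between kinds of gene. For alpha-cell markers it was 0.15, 0.22 and 0.19, and for ER chaperones 0.09, 0.24 and 0.33, so that all 3 WT mice lay nearer Light. For glycolysis genes it was 0.32, 1.0 and 1.05, and for endothelial markers 0.17, 0.91 and 0.66, so that WT mice 2 and 3 lay near Heavy. Every Heavy mouse was above all 6 Light and WT mice for 1171 genes (7.11% of those tested) and below all 6 for 1149 genes (6.98%). Among the 1153 genes called higher, this held for 672 (58.3%), and in 264 (22.9%) it was every Light mouse that was below the other 6. Among the 1056 called lower, Heavy was below all 6 in 624 (59.1%) and Light above all 6 in 371 (35.1%). Heavy and Light mice did not overlap in 98.5% of the genes called higher and 99.8% of those called lower. Over all genes tested, Heavy was above Light without overlap in 2736 and below in 2891. The shares among called genes are thus fixed in part by the call and are not compared with those over all genes.

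**Figure D1:**
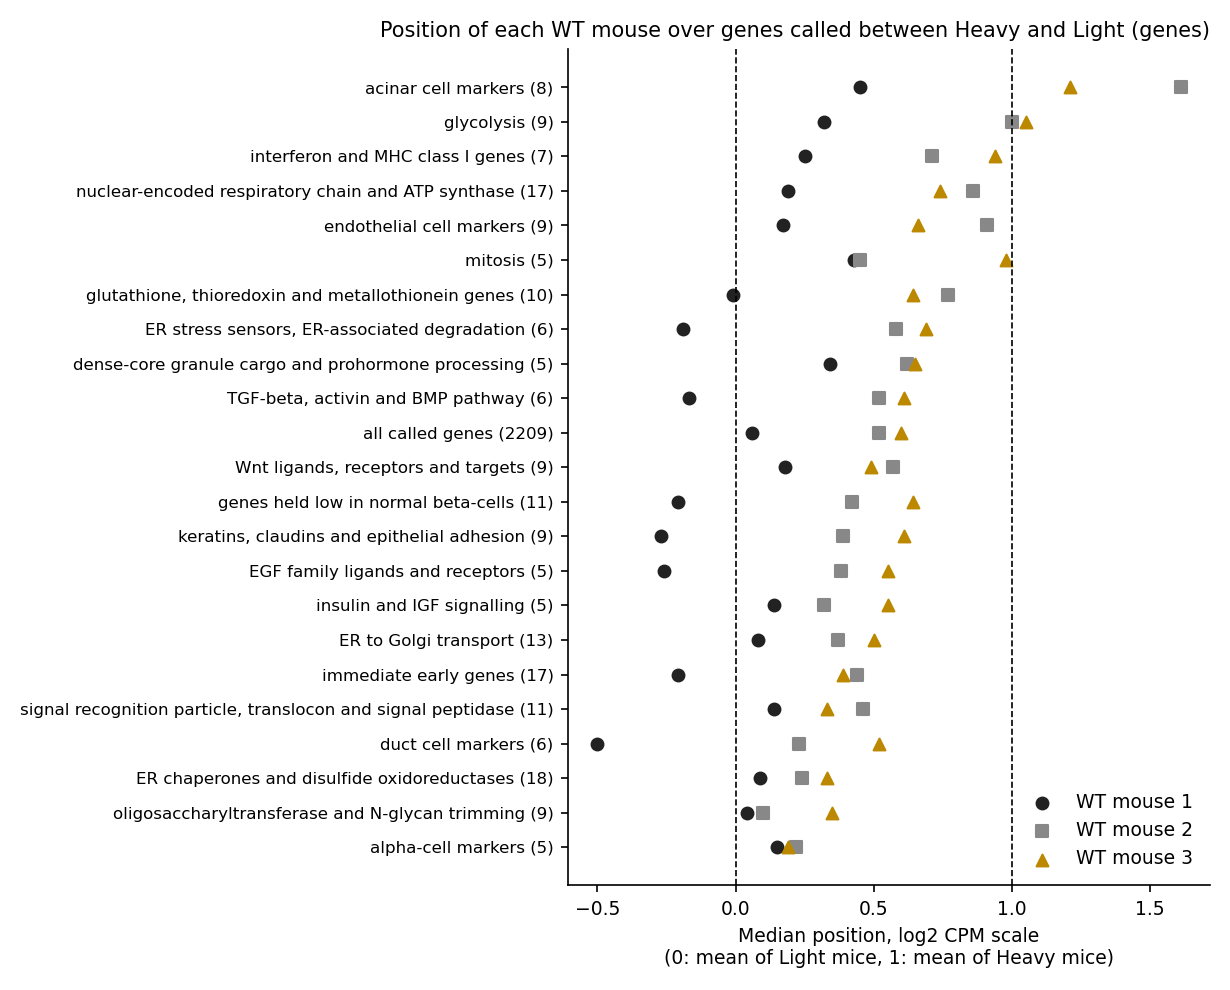
Median position of each WT mouse (circle, square, triangle) between the mean of the Light mice (0) and of the Heavy mice (1), on the log2 CPM scale, over the genes called between the morphs in each list, with their number in brackets. Alpha-cell markers and ER chaperones have all 3 WT mice at or under 0.33, while glycolysis has WT mice 2 and 3 at 1.0 and 1.05.

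The broadest decrease in Heavy islets was in the genes that fold and move newly made secretory proteins. Of 22 ER chaperones and disulfide oxidoreductases tested, 18 were called lower and none higher, with a median log2 fold change of -0.56 over the list, and in 19 every Heavy mouse was below all 6 Light and WT mice. *Hspa5*, which encodes the main ER chaperone BiP (chr2:34771970-34777547), was at 1307, 1367 and 1136 CPM in Heavy, 2526, 2884 and 2602 CPM in Light and 2539, 1909 and 1691 CPM in WT mice. The Heavy mice were the 3 lowest of the 9, with no overlap. The log2 fold change was -1.07 (SE 0.16, edgeR adjusted p = 0.00775). *Sdf2l1*, a partner of BiP, was at 68.5, 69.6 and 58.9 CPM in Heavy against 149, 162 and 178 CPM in Light, and fell by 1.31 on the log2 scale (edgeR adjusted p = 0.00612). *Ero1l*, the oxidase that recharges disulfide isomerases, was at 64.1, 63.7 and 62.2 CPM against 133, 157 and 173 CPM (-1.28 (SE 0.16, edgeR adjusted p = 0.00612)). In both genes the 3 Heavy mice were close to each other and below all 6 other mice. The lectin chaperone gene *Calr* stood at 463, 496 and 434 CPM against 746, 788 and 779 CPM (-0.73 (SE 0.10, edgeR adjusted p = 0.00628)), with WT mice at 731, 725 and 665 CPM, and the isomerase gene *Pdia6* at 360.2, 402 and 353 CPM against 608, 643 and 618 CPM (-0.75 (SE 0.09, edgeR adjusted p = 0.00612)), with WT mice at 580.1, 571 and 548 CPM. For both, every WT mouse lay between the morphs and nearer Light. The 4 members not called were *Ppib*, *Erp29*, *Txndc5* and *Ero1lb*, and 2 of the 22 had a log2 fold change above 0. *Ero1lb*, the beta-cell form of the oxidase, had values in the other direction, at 629, 1309.7 and 1037 CPM in Heavy against 658, 547 and 573 CPM in Light (0.74 (SE 0.25, edgeR adjusted p = 0.0705)), and passed with DESeq2 (adjusted p = 0.0147).

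Promoter sequence is shown for these chaperones because 7 of the 17 with a RefSeq entry (GRCm38.p6) held the ER stress response element (ERSE, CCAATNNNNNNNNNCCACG). This and the other elements below were searched on both strands of the 250 bases before the start. Over all 27025 genes with an entry, 0.130% held it. Of the 797 genes called lower with an entry 8 held it, these 7 and the degradation channel gene *Derl3*, and of the 797 called higher 0.125% did. A match describes the letters in this window and does not show that a factor binds there. Each line gives the element in capitals with 5 bases either side, 5′ to 3′ on the strand of the gene. In *Calr*, *Creld2* and the second site of *Hsp90b1* the element reads in the opposite direction.
*Hspa5*, chr2:34772020-34772048, + strand: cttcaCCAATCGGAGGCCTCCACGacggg
*Hsp90b1*, chr10:86705633-86705661, - strand: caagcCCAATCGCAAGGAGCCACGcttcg
*Hsp90b1*, chr10:86705528-86705556, - strand: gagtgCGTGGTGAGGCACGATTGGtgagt
*Calr*, chr8:84847070-84847098, - strand: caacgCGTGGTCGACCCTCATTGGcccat
*Canx*, chr11:50325795-50325823, - strand: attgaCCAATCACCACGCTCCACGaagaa
*Pdia6*, chr12:17266486-17266514, + strand: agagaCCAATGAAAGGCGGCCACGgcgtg
*Creld2*, chr15:88819515-88819543, + strand: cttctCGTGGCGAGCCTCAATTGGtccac
*Dnajc3*, chr14:118937822-118937850, + strand: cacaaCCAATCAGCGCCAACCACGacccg

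All 7 of these genes were called lower, with log2 fold changes of -1.07 for *Hspa5*, -0.59 for *Hsp90b1*, -0.73 for *Calr*, -0.39 for *Canx*, -0.75 for *Pdia6*, -0.74 for *Creld2* and -0.42 for *Dnajc3*.

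The decrease ran along the route that follows. Of 23 genes for the signal recognition particle, translocon and signal peptidase, 11 were called lower and none higher (median -0.28). *Spcs3*, a signal peptidase subunit, was at 284, 317 and 283 CPM in Heavy against 477, 475 and 462 CPM in Light (-0.68 (SE 0.10, edgeR adjusted p = 0.00714)), and *Sec11c*, a catalytic subunit, at 137, 127 and 129.8 CPM against 181, 213 and 210.1 CPM (-0.62 (SE 0.10, edgeR adjusted p = 0.00806)). The channel gene *Sec61a1* was not called, at 389.7, 389.8 and 349 CPM against 418, 396 and 429 CPM. Of 14 genes for oligosaccharyltransferase and N-glycan trimming, which attach and shape sugar chains, 9 were lower and none higher (median -0.43). Its subunit gene *Ddost* was at 373, 402 and 396 CPM in Heavy, 589, 582 and 586 CPM in Light and 558, 565 and 523 CPM in WT mice (-0.59 (SE 0.09, edgeR adjusted p = 0.00775)), with the Heavy mice below all 6 others. Of 28 genes for transport from ER to Golgi, 13 were lower and none higher (median -0.25). *Tmed3*, a cargo receptor gene, was at 199.7, 183 and 196 CPM in Heavy, 358, 396 and 395 CPM in Light and 344, 284 and 265 CPM in WT mice (-0.99 (SE 0.11, edgeR adjusted p = 0.00612)), again with Heavy below all 6 others. Together the chaperone, translocon, glycosylation and Golgi transport lists took 1.9%, 1.94% and 1.7% of all counts in the Heavy mice and 2.76%, 2.83% and 2.46% in the Light mice, without overlap. The exact two-sided permutation test over mice gave p = 0.1, the smallest that 3 against 3 allow, and 0.167 after adjustment over 15 such shares and ratios. Of the calls in these 4 lists, 9 of 18, 7 of 11, 5 of 9 and 1 of 13 held in every fit with 1 mouse left out. Acinar cells are also rich in ER, and the summed level of the 22 acinar markers overlapped between the morphs, at 39356, 20760 and 17495 CPM in Heavy against 14704, 24571 and 29263 CPM in Light. Their part in these values was not tested.

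ER stress sensors and the degradation of misfolded proteins gave 5 lower and 1 higher of 11 tested. The sensor genes *Ern1* and *Atf6* were lower, by -0.59 (edgeR adjusted p = 0.0269) and -0.56 (edgeR adjusted p = 0.0215) on the log2 scale, as was *Derl3*, by -0.98 (edgeR adjusted p = 0.0164). *Xbp1*, whose product switches on chaperone genes once its RNA is spliced by the product of *Ern1*, was the member called higher, at 939, 770.0 and 667 CPM against 547, 526 and 563 CPM (0.54 (SE 0.16, edgeR adjusted p = 0.0467)). A count per gene does not separate the spliced from the unspliced form, and WT mice 2 and 3 lay within the Heavy range at 521, 713 and 754 CPM for the 3 WT mice. Without Light replicate 2 the edgeR adjusted p of *Xbp1* was 0.146. In the integrated stress response, which slows translation under stress, 3 of 14 genes were lower and 1 higher. *Ddit3*, the stress transcription factor CHOP, was at 35.5, 34.5 and 34.9 CPM in Heavy, 132, 166 and 129.6 CPM in Light and 144, 64.1 and 45.4 CPM in WT mice (-2.02 (SE 0.33, edgeR adjusted p = 0.00897)). *Trib3*, one of its targets, was at 52, 43.3 and 35.3 CPM, 127, 158 and 145 CPM and 132, 66.8 and 49.8 CPM (-1.72 (SE 0.30, edgeR adjusted p = 0.00965)). In both genes WT mouse 1 lay among the Light mice and WT mice 2 and 3 nearer the Heavy mice. *Atf3*, a stress-induced factor, was the member called higher (1.04 (SE 0.29, edgeR adjusted p = 0.0367)). *Atf4* was not called (-0.30 (SE 0.10, edgeR adjusted p = 0.0788)). A second gene record of *Ddit3* and the gene *Mars* share exon bases with *Ddit3*, and whether counting used strand is not given in the sources used here.

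**Figure D2:**
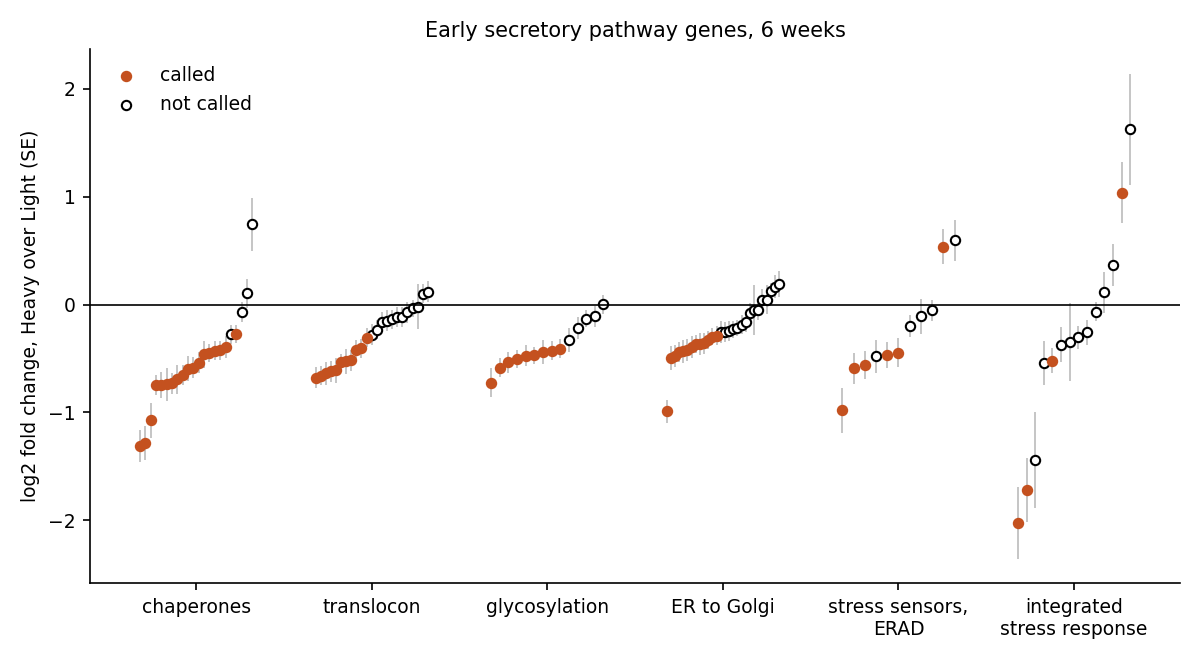
Log2 fold change of Heavy over Light with its SE for each member of 6 lists of the early secretory pathway and stress response at 6 weeks, ordered within each list, filled where called. Members called lower fill most of the chaperone and glycosylation lists. Of the 2 uncalled chaperones above 0, the higher is *Ero1lb*.

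Among the hormones themselves, those of the non-beta-cells were lower in Heavy islets. *Gcg*, which encodes glucagon (chr2:62474530-62483650), was at 9110.2, 9299 and 6395 CPM in Heavy, 15964, 18324 and 27621 CPM in Light and 17551, 17783 and 17956 CPM in WT mice. *Sst*, for somatostatin, was at 761, 999 and 959 CPM, 1799, 1884 and 2808 CPM and 2070.1, 1617 and 1599 CPM, and *Pyy*, for peptide YY, at 564, 700.1 and 806 CPM, 1148, 1412 and 1458 CPM and 925, 1449.5 and 1335 CPM. In all 3 genes the Heavy mice were below the 6 others. The log2 fold changes were -1.32 (SE 0.23, edgeR adjusted p = 0.0107) for *Gcg*, -1.25 (SE 0.20, edgeR adjusted p = 0.00806) for *Sst* and -0.96 (SE 0.19, edgeR adjusted p = 0.0134) for *Pyy*. *Ppy*, for pancreatic polypeptide, did not pass the test, with Heavy mice at 551, 1556 and 2302 CPM, Light mice at 2800.5, 2752 and 2921 CPM and WT mice at 866, 1739 and 1843 CPM (-0.94 (SE 0.42, edgeR adjusted p = 0.157)). In RNA of whole islets, fewer cells of a type and less RNA per cell cannot be told apart.

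Neither insulin gene passed the test. *Ins1* was at 63686, 83479 and 98156 CPM in Heavy and 46424, 38864 and 60059 CPM in Light (0.76 (SE 0.26, edgeR adjusted p = 0.0754)), and *Ins2* at 170510, 252850 and 285810 CPM and 165660, 148420 and 225510 CPM (0.39 (SE 0.29, edgeR adjusted p = 0.393)). The morphs did not overlap for *Ins1*, which passed with DESeq2 (adjusted p = 0.00136), while Heavy mouse 1 lay within the Light range for *Ins2*. *Iapp*, for the co-secreted amylin, was at 26540, 35168 and 39938 CPM and 31247, 32597 and 32604 CPM (0.08 (SE 0.20, edgeR adjusted p = 0.84)). Together the insulin genes took 23.9%, 31.8% and 35% of all counts in Heavy and 22.8%, 20.2% and 27.3% in Light (exact permutation p = 0.2, adjusted 0.273). There were 3.89, 2.76 and 1.67 counts of *Gcg* per 100 counts of *Ins1* and *Ins2* in Heavy, against 7.53, 9.78 and 9.67 in Light and 6.63, 6.86 and 6.44 in WT mice. For *Sst* the ratio was 0.325, 0.297 and 0.25 in Heavy, 0.848, 1.01 and 0.983 in Light and 0.782, 0.624 and 0.574 in WT mice. For *Gcg* all 3 WT mice were nearer Light than Heavy, while for *Sst* WT mouse 1 was nearer Light and WT mice 2 and 3 lay about midway between the morphs. *Gcg* per 100 counts of *Sst* was 1197, 931 and 667 in Heavy against 888, 973 and 984 in Light, a mean difference of -16.7 with the Light range inside that of Heavy (exact permutation p = 0.9, adjusted 0.9). The 2 insulin genes differed between the morphs in their ratio, with 37.3, 33 and 34.3 counts of *Ins1* per 100 of *Ins2* in Heavy and 28, 26.2 and 26.6 in Light, while WT mice spanned both at 26.9, 33.7 and 37.5. For each of these ratios to insulin and for the *Ins1* ratio the exact permutation p was 0.1 and the adjusted value 0.167.

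Other markers of the same cells moved with the hormones in part. Of 8 alpha-cell markers 5, *Gcg* included, were called lower and none higher (median -1.18). Only 1 of the 8 was above 0, *Loxl4* (2.53, edgeR adjusted p = 0.123), which was not called. The alpha-cell transcription factor gene *Irx2* was called lower, at 1.54, 2.43 and 2.26 CPM in Heavy against 4.63, 6.74 and 7 CPM in Light (-1.56 (SE 0.33, edgeR adjusted p = 0.0164)). *Ttr*, for the thyroid hormone carrier transthyretin, was at 123, 154 and 159 CPM against 228, 264 and 402 CPM (-1.03 (SE 0.19, edgeR adjusted p = 0.0111)). Leaving out a mouse kept 2 of the 5 calls in every fit, and without Light replicate 2 or Light replicate 3 only 2 of them were called. Of 4 delta-cell markers 2 were lower, *Sst* and *Rbp4*, a retinol carrier, at 52.6, 72.4 and 64.5 CPM against 106, 126 and 149 CPM (-1.01 (SE 0.14, edgeR adjusted p = 0.0066)). *Hhex*, the transcription factor that sets delta-cell identity, was not, at 25, 22.7 and 23.4 CPM in Heavy and 20.7, 19.2 and 33.2 CPM in Light (-0.04 (SE 0.19, edgeR adjusted p = 0.911)). *Sst* has a cyclic AMP response element (CRE, TGACGTCA) in its promoter, shown here with that of the granule peptide gene *Cartpt* below. The element was in 1.77% of all genes with a promoter entry, in 3.03% of those tested and in 2.38% of those called lower. Of 15 granule genes with an entry 4 held it, *Cartpt*, *Chgb*, *Pcsk1* and *Scg2*, and of these only *Cartpt* was called.
*Sst*, chr16:23890880-23890897, - strand: ttggcTGACGTCAgagag
*Cartpt*, chr13:99900783-99900800, - strand: ggcatTGACGTCAaacgg

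**Figure D3:**
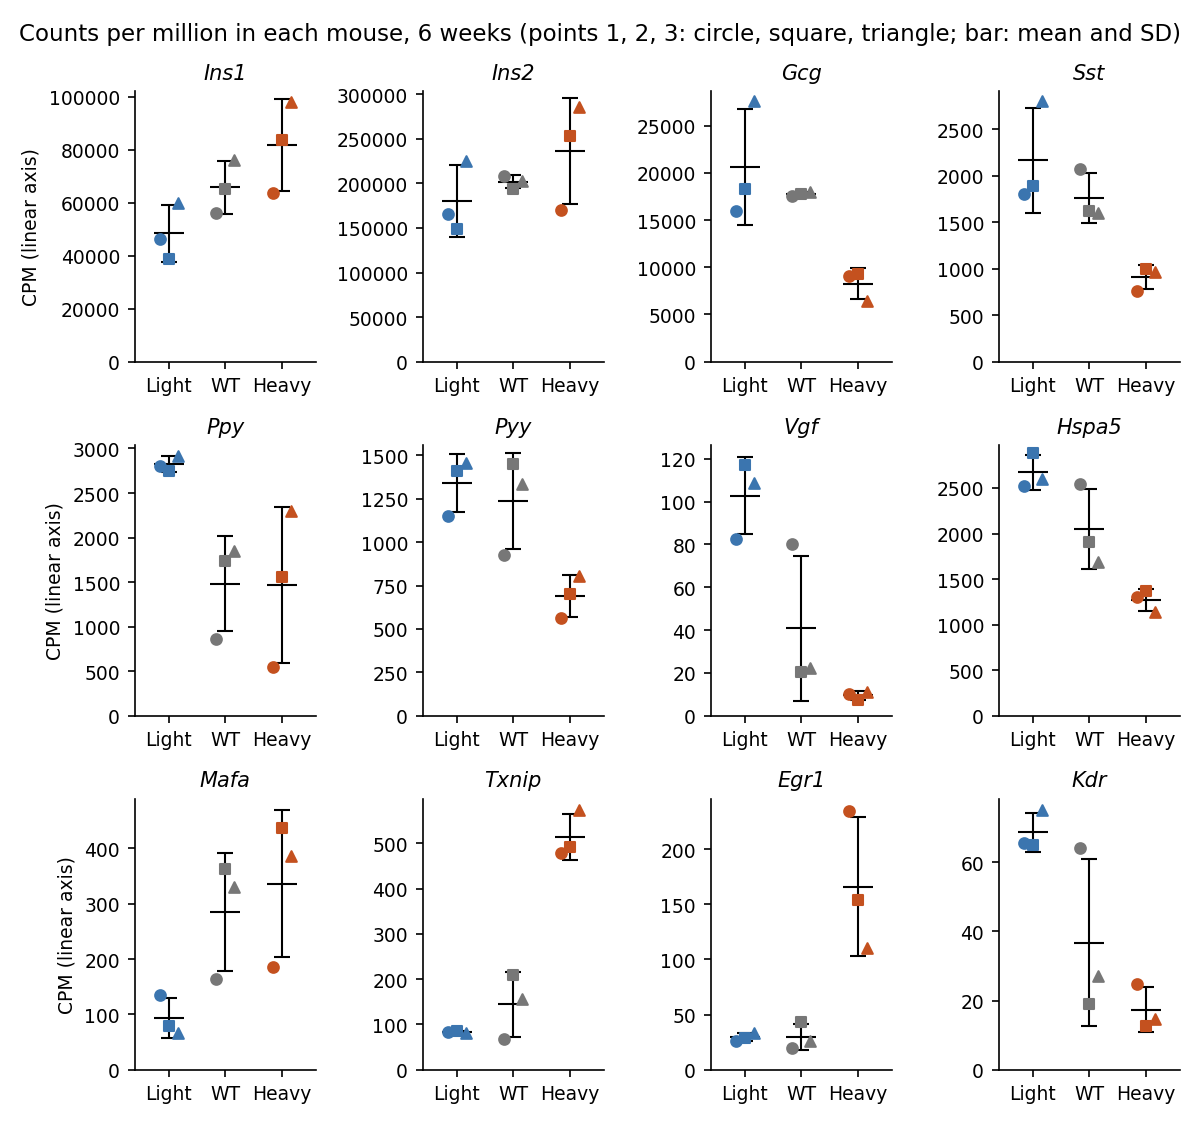
CPM on linear axes of 12 genes in each mouse (circle, square and triangle for mice 1, 2 and 3; bars give the mean and SD of 3 mice). *Gcg*, *Sst*, *Pyy* and *Hspa5* are below all 6 Light and WT mice in each Heavy mouse, *Txnip* and *Egr1* are above all 6, and for *Kdr* and *Mafa* WT mice 2 and 3 lie near Heavy.

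Among granule contents, the calls fell on small peptides and one modifying enzyme. Of 17 genes for granule cargo and prohormone processing, 5 were called lower and none higher (median -0.26). *Vgf*, the precursor of neuroendocrine peptides, was at 9.91, 7.3 and 11.2 CPM in Heavy, 82.5, 117 and 109 CPM in Light and 80.0, 20.3 and 22.3 CPM in WT mice, a log2 fold change of -3.42 (SE 0.48, edgeR adjusted p = 0.00689). *Pdyn*, the dynorphin precursor, was at 25.4, 22 and 32.6 CPM, 82.8, 143 and 141 CPM and 71, 26.6 and 18.8 CPM (-2.19 (SE 0.41, edgeR adjusted p = 0.012)). For both, WT mouse 1 was just under the Light mice and WT mice 2 and 3 were nearer Heavy. *Cartpt*, the CART peptide precursor, was at 0.866, 1.09 and 0.815 CPM against 4.35, 4.36 and 5.72 CPM (-2.38 (SE 0.30, edgeR adjusted p = 0.00612)), and *Pam*, the enzyme that amidates peptide ends, at 57.2, 45.6 and 54.6 CPM against 97.9, 93.3 and 82.8 CPM (-0.80 (SE 0.10, edgeR adjusted p = 0.00612)). Neither overlapped between the morphs, and Heavy was below the WT mice too. The granins *Chga* and *Chgb* did not pass the test, with log2 fold changes of 0.25 (edgeR adjusted p = 0.524) and -0.26 (edgeR adjusted p = 0.187). Alpha-cell markers, also lower in Heavy, summed to 9461, 9588 and 6712 CPM in Heavy and 16429, 18857 and 28322 CPM in Light. On the scale from Light (0) to Heavy (1) the WT mice were at 0.34, 0.62 and 0.65 for the called granule genes. For the called alpha-cell markers they were at 0.15, 0.22 and 0.19. The part of alpha-cells in the granule values was not tested.

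Among 22 genes for docking and release of granules, 3 were lower and 1 higher (median -0.03). The granule membrane gene *Ptprn* was at 266, 266 and 295 CPM in Heavy against 409, 405 and 442 CPM in Light (-0.60 (SE 0.12, edgeR adjusted p = 0.0142)), the calcium sensor gene *Syt4* at 84.3, 101 and 93.2 CPM against 123, 145 and 143 CPM (-0.56 (SE 0.12, edgeR adjusted p = 0.0166)), and *Rab27a*, for a docking GTPase, at 119, 139 and 134 CPM against 179, 157 and 156 CPM (-0.33 (SE 0.10, edgeR adjusted p = 0.0473)). All 3 were below the 6 other mice in each Heavy mouse. *Slc30a8*, the zinc transporter that loads insulin granules, was called higher, at 415, 849 and 744 CPM against 366, 281 and 316 CPM (1.06 (SE 0.30, edgeR adjusted p = 0.0412)). Here Light stood apart, since WT mice were at 401, 816 and 874 CPM. The fusion gene *Snap25* was not called (-0.26 (SE 0.12, edgeR adjusted p = 0.178)). Of 18 genes for glucose sensing, channels and receptors, only *Trpm5*, a cation channel, was called, at 33.1, 42.4 and 69.8 CPM against 32.5, 21.9 and 27.2 CPM (0.83 (SE 0.24, edgeR adjusted p = 0.0412)). The glucose transporter gene *Slc2a2* was at 246, 622 and 469.6 CPM in Heavy and 306, 244 and 226 CPM in Light (0.79 (SE 0.30, edgeR adjusted p = 0.101)). None of the calls on docking, sensing and channels held in every fit with 1 mouse left out.

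Beta-cell markers had a median log2 fold change of 0.59 with 10 of 10 above 0, and 2 of the 10 passed the test. Among 20 islet transcription factors 3 were called higher and none lower. *Mafa*, the factor of mature beta-cells, was at 185, 437 and 386 CPM in Heavy, 134, 79.8 and 66.2 CPM in Light and 164, 363 and 329.9 CPM in WT mice (1.84 (SE 0.38, edgeR adjusted p = 0.0145)). *Mlxipl*, for the glucose-responsive factor ChREBP, was at 309.5, 507 and 633 CPM, 219, 178 and 204 CPM and 239, 339.8 and 343 CPM (1.27 (SE 0.23, edgeR adjusted p = 0.0111)), and *Glis3*, a factor for insulin gene expression, rose by 0.52 (edgeR adjusted p = 0.039). For *Mafa* and *Mlxipl* the Light mice were the lowest of the 9, and for all 3 genes WT mice 2 and 3 lay within the Heavy range. None of the 3 calls held in every fit with 1 mouse left out, and without Light replicate 2 the edgeR adjusted p was 0.0674 for *Mafa* and 0.0543 for *Mlxipl*. *Pdx1* (0.55 (SE 0.18, edgeR adjusted p = 0.0721), DESeq2 adjusted p = 0.0326) and *Nkx6-1* (0.47 (SE 0.20, edgeR adjusted p = 0.131)) were not called by edgeR. *Mlxipl* shares exon bases with a gene model on the other strand.

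Of 22 disallowed genes tested 11 were called higher and none lower. All 22 had a log2 fold change above 0, with a median of 1.18. *Smad3*, a mediator of TGF-beta signals, was at 28.7, 14.6 and 14.8 CPM in Heavy, 5.27, 5.25 and 5.98 CPM in Light and 4.44, 8.15 and 11.1 CPM in WT mice (1.82 (SE 0.34, edgeR adjusted p = 0.0116)). *Mgst1*, a membrane glutathione transferase, was at 83.8, 58.3 and 44.5 CPM, 10.1, 17.4 and 15.5 CPM and 7.18, 27.9 and 35.4 CPM (2.13 (SE 0.45, edgeR adjusted p = 0.0164)), and *Cat*, catalase, at 92, 47.4 and 48.4 CPM, 27.6, 28.6 and 25.4 CPM and 24.3, 49.2 and 36.5 CPM (1.21 (SE 0.28, edgeR adjusted p = 0.0215)). Heavy mice were above Light mice in each, with Heavy mouse 1 the highest. The list's namesakes *Ldha*, lactate dehydrogenase, at 242, 121 and 102 CPM against 49.9, 87.7 and 92.2 CPM (1.02 (SE 0.43, edgeR adjusted p = 0.137)), and *Slc16a1*, the pyruvate transporter MCT1, at 14.2, 6.32 and 4.71 CPM against 3.28, 7.34 and 6.66 CPM (0.57 (SE 0.44, edgeR adjusted p = 0.417)), did not pass. None of the 11 calls held in every fit with 1 mouse left out. These genes are used by most other cells of the pancreas. Duct markers, 6 of 10 of which were also called higher, summed to 3574, 1776 and 2311 CPM in Heavy and 1805, 3807 and 2397 CPM in Light, and acinar markers were highest in Heavy mouse 1. Their part in these values was not tested. Of 6 progenitor genes tested 2 were higher, *Hes1* (0.93 (SE 0.24, edgeR adjusted p = 0.0295)) and *Sox9* (1.50 (SE 0.45, edgeR adjusted p = 0.0496)), while *Aldh1a3* (0.22 (SE 0.64, edgeR adjusted p = 0.856)) and *Neurog3* (-0.57 (SE 0.29, edgeR adjusted p = 0.217)) were not called.

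Lactogens, the hormones that enlarge the beta-cell mass in pregnancy, act through STAT5 and raise *Cish* and *Socs2*, its feedback genes. *Cish* was at 29.3, 21.5 and 22.6 CPM in Heavy, 9.12, 9.62 and 10.2 CPM in Light and 9.82, 18.1 and 21.6 CPM in WT mice (1.35 (SE 0.25, edgeR adjusted p = 0.0113)), and *Socs2* at 34.7, 35.1 and 36 CPM, 21.8, 24.8 and 29 CPM and 25.9, 31.1 and 31.9 CPM (0.49 (SE 0.12, edgeR adjusted p = 0.0291)). Both were above Light in every Heavy mouse, and *Cish* shares exon bases with gene models on the other strand. The receptor genes *Ghr* (-0.08 (SE 0.12, edgeR adjusted p = 0.708)) and *Prlr* (0.58 (SE 0.23, edgeR adjusted p = 0.111)) were not called, and *Tph1*, the serotonin enzyme gene that pregnancy induces, was too low to be tested. *Ddc*, the other enzyme of that route, was higher (0.61 (SE 0.16, edgeR adjusted p = 0.0305)).

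Of 18 glycolysis genes tested, 9 were called lower and none higher (median -0.44), with 12 below 0 and 6 above 0. In 2 members every Heavy mouse was above every Light mouse and in 11 below. Over all 16463 genes tested these counts were 2736 and 2891. *Ldha*, also a member of the disallowed list, was among those above 0 (1.02, edgeR adjusted p = 0.137). *Aldoa*, aldolase, was at 727, 668 and 666 CPM in Heavy, 1068, 1197 and 1264 CPM in Light and 992, 706 and 639.6 CPM in WT mice (-0.78 (SE 0.16, edgeR adjusted p = 0.0142)). *Pgk1*, phosphoglycerate kinase, was at 30.2, 25.2 and 21.2 CPM, 41.5, 52.2 and 59.8 CPM and 35.5, 23.9 and 28.6 CPM (-1.0 (SE 0.18, edgeR adjusted p = 0.0113)), and *Tpi1*, triose phosphate isomerase, at 166, 139 and 142 CPM, 237, 247 and 276 CPM and 205, 138 and 151 CPM (-0.77 (SE 0.14, edgeR adjusted p = 0.0118)). Light was the group apart, since WT mice 2 and 3 were at the Heavy level in each gene. In 9 of the 18 members every Light mouse lay outside the range of the 6 others, against 1287 of all 16463 genes tested. The list took 0.288%, 0.236% and 0.229% of counts in Heavy, 0.365%, 0.382% and 0.37% in Light and 0.314%, 0.254% and 0.249% in WT mice (exact permutation p = 0.1 for Heavy against Light, adjusted 0.167). Of the 9 calls, 2 held in every fit with 1 mouse left out.

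Of 69 nuclear genes for the respiratory chain and ATP synthase, 16 were lower and 1 higher (median -0.22). *Atp5g1*, an ATP synthase subunit, was at 69.4, 62.4 and 65.6 CPM in Heavy against 105, 139.8 and 155 CPM in Light (-1.02 (SE 0.17, edgeR adjusted p = 0.00905)). *Uqcrfs1*, the Rieske protein of complex III, was the one higher, at 128, 122 and 120.0 CPM against 96.4, 103 and 107 CPM (0.27 (SE 0.08, edgeR adjusted p = 0.0436)). Of 10 mitochondrially encoded messenger RNAs none was called by edgeR, with a median of 0.30 (0.19 with total counts as the scaling), while 6 were higher at an unadjusted p under 0.05 and DESeq2 called 1 higher. They took 0.319%, 0.268% and 0.294% of counts in Heavy and 0.249%, 0.27% and 0.229% in Light (exact permutation p = 0.2, adjusted 0.273). Of 23 genes for pyruvate entry and the tricarboxylic acid cycle 3 were lower, among them *Mpc1* of the mitochondrial pyruvate carrier (-0.55 (SE 0.12, edgeR adjusted p = 0.0157)). *Cox6a2*, a respiratory chain subunit known from muscle and not in the list, was among the genes with the largest decrease, at 3.85, 9.12 and 2.99 CPM in Heavy, 32.7, 42.1 and 42.4 CPM in Light and 39.6, 26.8 and 26 CPM in WT mice (-2.92 (SE 0.33, edgeR adjusted p = 0.00612)). All 3 WT mice were above Heavy. *Itgad* overlaps *Cox6a2* on the other strand by 70 exon bases.

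*Txnip*, which encodes an inhibitor of thioredoxin and of glucose uptake and is a strong target of glucose in beta-cells, was higher in Heavy islets. It was at 478, 492 and 573 CPM in Heavy, 83.8, 84.4 and 80.8 CPM in Light and 67.6, 209.9 and 156 CPM in WT mice, so that each Heavy mouse was above all 6 others (2.63 (SE 0.31, edgeR adjusted p = 0.00612)). The call held in every fit with 1 mouse left out, with a largest edgeR adjusted p of 0.0396. A gene model on the other strand, *Gm15441*, shares 606 exon bases with it. The promoter of *Txnip* holds a carbohydrate response element (ChoRE, CACGNGNNNNNCNCGNG), the motif of ChREBP, found in 0.326% of all genes with a promoter entry, in 0.599% of those tested and in 0.878% of those called higher.
*Txnip*, chr3:96557867-96557893, + strand: ctgtgCACGAGGGCTGCACGAGcctcc

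Genes against oxidants and toxic metals moved both ways, 7 of 21 higher and 3 lower. The glutathione transferase genes were higher, *Gstm1* at 549.8, 459.9 and 486 CPM in Heavy, 164, 223 and 185 CPM in Light and 240.4, 401 and 299.7 CPM in WT mice (1.39 (SE 0.18, edgeR adjusted p = 0.00612)), *Gsta3* at 46, 24.2 and 19.6 CPM, 3.7, 4.76 and 4.53 CPM and 2.48, 15.5 and 14.5 CPM (2.80 (SE 0.54, edgeR adjusted p = 0.0126)), and *Gstp1*, outside the list, at 740.0, 483 and 429 CPM, 131, 224 and 182 CPM and 160.3, 364 and 347 CPM (1.62 (SE 0.31, edgeR adjusted p = 0.0126)). Each Heavy mouse was above the 6 others for all 3. These genes belong to families of similar sequence, and the counting may share reads among members. The metallothionein genes *Mt1*, at 1046, 647 and 484 CPM, 1870.5, 2367 and 2458 CPM and 1704, 736 and 781 CPM (-1.62 (SE 0.34, edgeR adjusted p = 0.0164)), and *Mt2*, at 248, 150.4 and 100.2 CPM, 453, 604 and 558 CPM and 429.9, 171 and 166 CPM (-1.70 (SE 0.39, edgeR adjusted p = 0.0203)), were lower in Heavy, and Light mice were the highest of the 9. *Hmox1*, the heme oxygenase gene raised by oxidants, was at 108, 51.4 and 61.5 CPM in Heavy and 58.7, 89.9 and 70.5 CPM in Light (0.02 (SE 0.27, edgeR adjusted p = 0.971)).

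In lipid metabolism 3 of 11 fatty acid oxidation genes were higher. The acyl-CoA dehydrogenase gene *Acadl* was at 98.5, 67.3 and 73.4 CPM in Heavy against 43.4, 51.9 and 47 CPM in Light (0.75 (SE 0.17, edgeR adjusted p = 0.0197)). In fatty acid synthesis 1 of 12 was higher and 1 lower. *Scd1*, a desaturase, was at 40.5, 19.5 and 23.4 CPM in Heavy, 3.78, 3.87 and 4.44 CPM in Light and 1.88, 22.6 and 21.8 CPM in WT mice (2.79 (SE 0.65, edgeR adjusted p = 0.0218)), with Light mice and WT mouse 1 low and all others high, while *Fasn* and *Acaca* were not called. Of 19 cholesterol genes 2 were lower, *Dhcr7* (-0.89 (SE 0.23, edgeR adjusted p = 0.0312)) and *Sqle* (-0.58 (SE 0.15, edgeR adjusted p = 0.0328)).

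**Figure D4:**
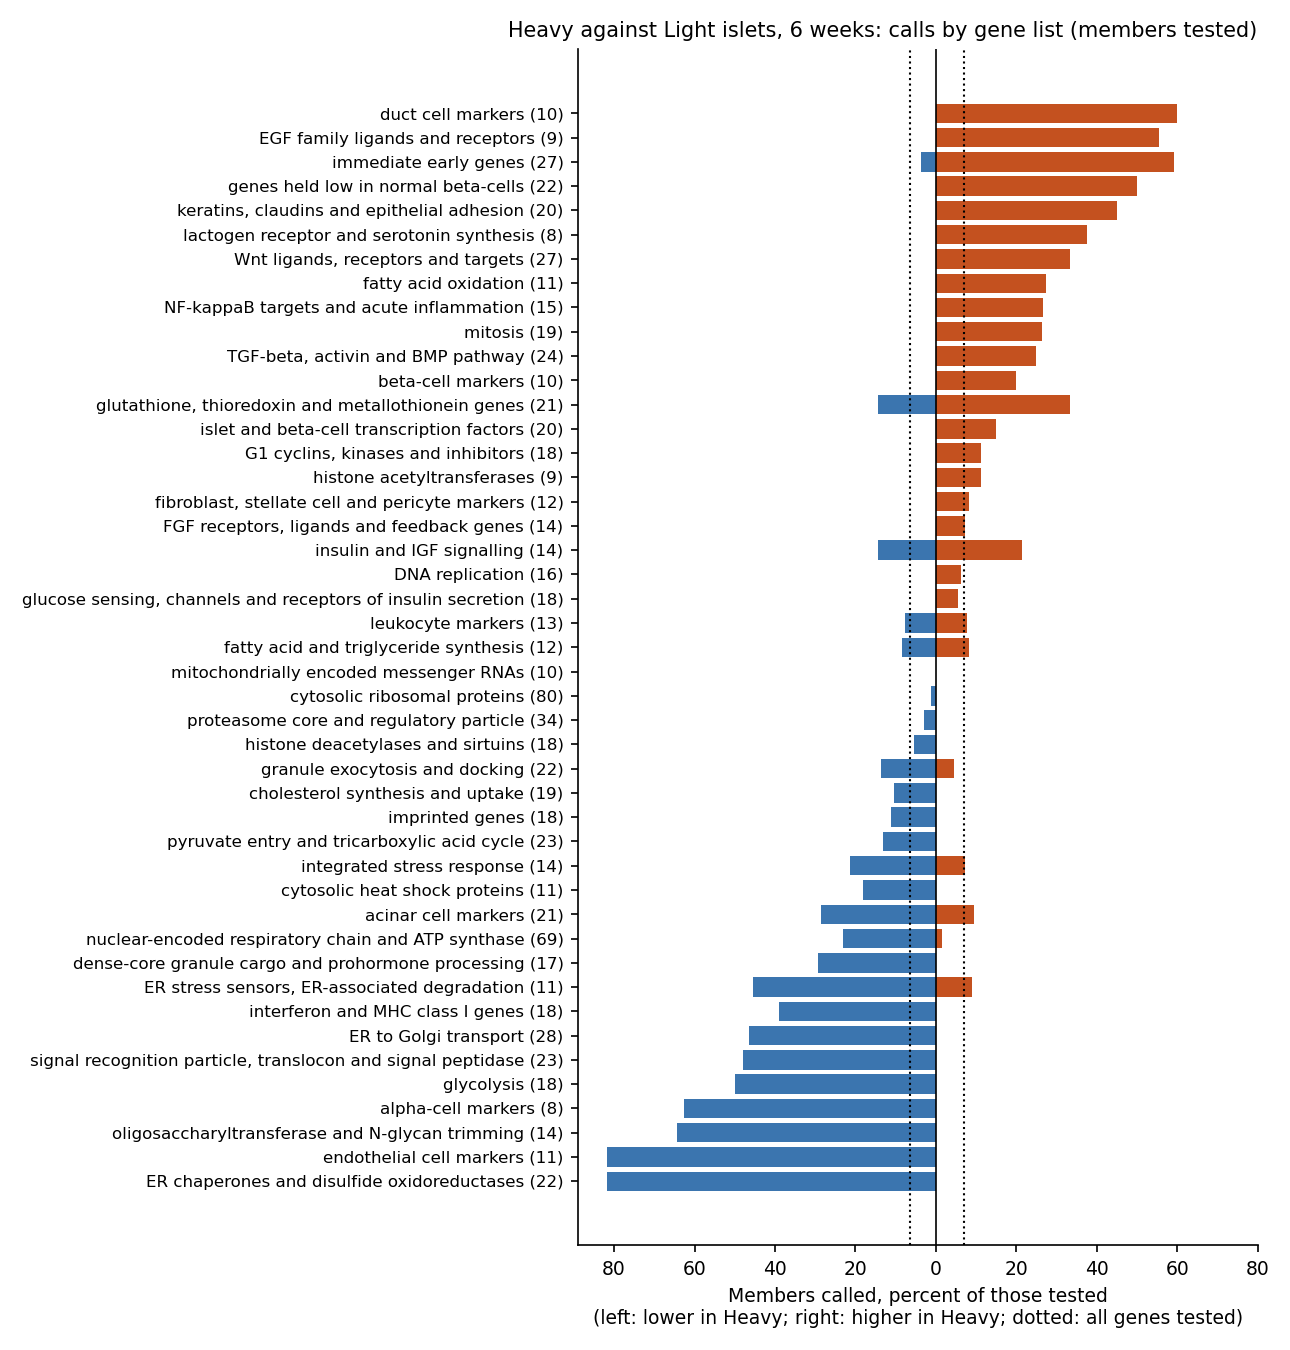
Share of tested members called lower (left, blue) and higher (right, red) in Heavy, in percent, for lists with at least 8 members tested, whose number is in brackets. Dotted lines mark the shares over all genes tested, 6.41% lower and 7.0% higher. The lists of ER chaperones and endothelial markers reach furthest left and duct markers furthest right.

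Endothelial markers were lower in Heavy islets, 9 of 11 tested and none higher (median -1.39). *Kdr*, the VEGF receptor, was at 24.7, 12.6 and 14.6 CPM in Heavy, 65.7, 65 and 75.1 CPM in Light and 64.2, 18.9 and 27 CPM in WT mice (-1.98 (SE 0.39, edgeR adjusted p = 0.0134)). *Cdh5*, the endothelial cadherin, was at 4.91, 1.46 and 3.17 CPM, 11.3, 9.81 and 10.8 CPM and 8.03, 4.5 and 5.67 CPM (-1.71 (SE 0.34, edgeR adjusted p = 0.0134)), and *Flt1* at 11.8, 6.45 and 12.6 CPM, 36.3, 24.5 and 35.8 CPM and 27.9, 14.7 and 17.2 CPM (-1.63 (SE 0.29, edgeR adjusted p = 0.0102)). Light and WT mouse 1 were high and the rest low. In 8 of the 11 genes every Light mouse lay outside the range of the others, against 1287 of all 16463 genes tested. The markers summed to 204, 78.1 and 136 CPM in Heavy, 342, 335 and 422 CPM in Light and 303, 143 and 193 CPM in WT mice. *Esm1*, a gene of endothelial tip cells outside the list, moved alike, at 13.7, 10.7 and 18.8 CPM, 64.8, 53.9 and 86.1 CPM and 57.3, 15.9 and 15.1 CPM (-2.23 (SE 0.46, edgeR adjusted p = 0.0147)). Of the 9 calls, 4 held in every fit with 1 mouse left out, and without any 1 of the Light mice, Heavy replicate 2 or Heavy replicate 3 the count was 4.

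Exocrine genes did not move as a unit. Of 21 acinar markers tested 6 were lower and 2 higher. The enzyme genes *Pnlip*, pancreatic lipase, at 295, 173 and 136 CPM in Heavy, 989, 1593 and 1639 CPM in Light and 677, 76.2 and 104 CPM in WT mice (-2.80 (SE 0.71, edgeR adjusted p = 0.0279)), and *Cela1*, an elastase, at 1052, 527 and 439 CPM, 2222, 3456 and 3698 CPM and 1482, 240.2 and 367 CPM (-2.22 (SE 0.59, edgeR adjusted p = 0.0341)), were lower. The acinar transcription factor genes were higher, *Ptf1a* at 64.2, 29.6 and 26.2 CPM, 3.78, 7.14 and 7.09 CPM and 2.9, 27.3 and 28.5 CPM (2.75 (SE 0.66, edgeR adjusted p = 0.0236)) and *Rbpjl* at 37, 19.9 and 16.2 CPM, 0.641, 3.87 and 2.99 CPM and 0.598, 14.8 and 20.7 CPM (3.34 (SE 0.87, edgeR adjusted p = 0.0307)). In all 4 genes WT mouse 1 lay nearer Light than did WT mice 2 and 3, which were past the Heavy range in *Pnlip* and *Cela1* and within it or just short of it in *Ptf1a* and *Rbpjl*. The trypsinogen gene *Prss2* was at 9176, 4634 and 4048 CPM in Heavy and 2168, 4051 and 4907 CPM in Light (0.68 (SE 0.46, edgeR adjusted p = 0.344)). All acinar markers together took 4.01%, 1.96% and 1.6% of counts in Heavy and 1.58%, 2.64% and 2.8% in Light (exact permutation p = 0.8, adjusted 0.9). *Ptf1a* and *Rbpjl* overlap other genes on the opposite strand, *Ptf1aos* and *Matn4*. None of the 8 calls held in every fit with 1 mouse left out.

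Duct markers were higher in 6 of 10 and lower in none (median 0.98). *Krt19*, a duct keratin, was at 492, 298 and 225 CPM in Heavy, 93.1, 157 and 143 CPM in Light and 73.6, 159 and 216 CPM in WT mice (1.37 (SE 0.37, edgeR adjusted p = 0.0359)), so that each Heavy mouse was above all 6 others. *Krt7* (-0.29 (SE 0.15, edgeR adjusted p = 0.23)), *Cftr* (0.92 (SE 0.54, edgeR adjusted p = 0.277)) and *Spp1*, osteopontin, at 2010.5, 728 and 1270.2 CPM and 1002, 2862 and 1467 CPM (-0.41 (SE 0.39, edgeR adjusted p = 0.512)), were not called. Of 11 gastric and mucosal genes only 5 had enough counts to be tested, and 3 of these were higher. The filter asks for enough counts in at least 3 mice, so a gene nearly absent in Light entered only through Heavy or WT mice. The 3 calls are tilted by this and are not read as a result about the list. Among those too low to be tested, *Muc13* had a mean of 0.0321 CPM in Heavy and 1.67 CPM in Light. *Agr2*, *Gkn3* and *Muc6* had means of 0.0642, 0.234 and 0.141 CPM in Heavy and 0 CPM in Light. *Tff1*, a mucosal repair peptide, was at 6.45, 4.01 and 1.9 CPM in Heavy, 0.0854, 1.02 and 1.45 CPM in WT and at 0 in each Light mouse, so no fold is given. *Cldn18*, a tight junction protein of stomach and lung, was at 16.7, 8.63 and 6.43 CPM in Heavy, 0, 0.595 and 0 CPM in Light and 0.427, 9.68 and 6.56 CPM in WT mice (5.87 (SE 1.15, edgeR adjusted p = 0.0131)). Of 20 keratin, claudin and adhesion genes 9 were higher and none lower (median 0.59), including the laminin genes *Lama3* (3.07 (SE 0.55, edgeR adjusted p = 0.0106)) and *Lamb3* (2.27 (SE 0.43, edgeR adjusted p = 0.012)), which build the epithelial basement membrane. *Lamb3* was at 59.5, 31.7 and 33.3 CPM, 6.41, 10.3 and 9.22 CPM and 5.72, 18.1 and 23.7 CPM, and *Krt8* and *Krt18* were not called.

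Stromal and immune markers gave few calls. Of 12 fibroblast, stellate cell and pericyte markers 1 was higher, *Acta2*, smooth muscle actin, at 29.6, 12 and 28 CPM in Heavy, 4.2, 5.35 and 4.7 CPM in Light and 3.33, 21.3 and 31.9 CPM in WT mice (2.30 (SE 0.62, edgeR adjusted p = 0.0343)), and *Col1a1* was not called (1.44 (SE 0.70, edgeR adjusted p = 0.192)). Over this list the median was 1.24, with 9 of 12 above 0. These markers summed to 779, 302 and 632 CPM, 235, 211 and 439 CPM and 201, 1124 and 799 CPM, so the WT mice covered the range of both morphs. Of 13 leukocyte markers 1 was lower and 1 higher, *Cd68*, a macrophage lysosome gene, at 8.66, 10.7 and 12.9 CPM against 21.2, 24.6 and 26 CPM (-1.15 (SE 0.18, edgeR adjusted p = 0.00806)), and *Cd79a*, a B-cell receptor gene, at 5, 9.61 and 13.2 CPM against 3.13, 2.38 and 2.39 CPM (1.80 (SE 0.42, edgeR adjusted p = 0.0218)). The list had a median of 0.40 with 8 of 13 above 0, and the other macrophage markers *C1qa* (0.84 (SE 0.25, edgeR adjusted p = 0.0506), DESeq2 adjusted p = 0.0113), *C1qb* (0.52 (SE 0.33, edgeR adjusted p = 0.319)), *C1qc* (0.72 (SE 0.31, edgeR adjusted p = 0.142)) and *Lyz2* (0.75 (SE 0.31, edgeR adjusted p = 0.13)) had values in the other direction from *Cd68*, none called by edgeR. The leukocyte marker *Ptprc* did not differ past the threshold, at 1.92, 3.41 and 2.17 CPM and 4.2, 1.98 and 1.54 CPM (-0.08 (SE 0.39, edgeR adjusted p = 0.911)). Hemoglobin and other red cell genes summed to at most 2.577 CPM in any mouse and were not tested. Of 2 glial markers tested 1 was higher, and the 1 adipocyte marker tested was not called.

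Immediate early genes, which cells switch on within minutes of a stimulus, were higher in 16 of 27 tested and lower in 1 (median 1.23). *Fos* was at 112, 76.1 and 40.6 CPM in Heavy, 5.98, 6.05 and 4.27 CPM in Light and 2.9, 17.7 and 13.6 CPM in WT mice (3.81 (SE 0.54, edgeR adjusted p = 0.00691)), and *Egr1* at 235, 154 and 110.0 CPM, 26.1, 28.4 and 33.3 CPM and 19.7, 43 and 25.7 CPM (2.51 (SE 0.30, edgeR adjusted p = 0.00612)). *Junb* was at 326, 202 and 170.3 CPM, 65.9, 62.3 and 85.3 CPM and 45.8, 103 and 110.3 CPM (1.71 (SE 0.32, edgeR adjusted p = 0.0116)). Heavy mice were above all 6 others in each of the 3, and mouse 1 was the highest and mouse 3 the lowest of the Heavy group. *Dusp1*, a phosphatase that ends kinase signals, was at 161, 144 and 80.4 CPM against 37.8, 35.9 and 44.2 CPM (1.71 (SE 0.24, edgeR adjusted p = 0.00714)). *Npas4*, an early gene that answers to calcium entry, was the member called lower, but was at most 1.49 CPM in any mouse. Of the 17 calls in both directions, 4 held in every fit with 1 mouse left out, and the count of higher members was 6 without Light replicate 1 and 4 without Light replicate 2. Heat shock genes gave 2 lower and none higher of 11 tested, *Hspd1* and *Hspe1*, with *Hspa1a* at 4.14, 5.23 and 3.53 CPM in Heavy and 10.5, 12.4 and 11 CPM in Light (-1.40 (SE 0.61, edgeR adjusted p = 0.147)).

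Genes of the EGF family were higher in 5 of 9 and lower in none (median 1.46), covering both receptors and ligands. The receptor gene *Egfr* was at 46.9, 30.9 and 32.7 CPM in Heavy, 21.4, 20.2 and 19.1 CPM in Light and 22.5, 23.9 and 28.8 CPM in WT mice (0.86 (SE 0.16, edgeR adjusted p = 0.012)), and *Erbb3* at 43.4, 30.9 and 23.1 CPM, 7.98, 13.7 and 12.4 CPM and 8.46, 18.1 and 14.4 CPM (1.52 (SE 0.30, edgeR adjusted p = 0.0139)). The ligand gene *Hbegf* was at 47.2, 32.8 and 27.6 CPM, 9.97, 12 and 17.2 CPM and 7.94, 12.7 and 22.1 CPM (1.46 (SE 0.34, edgeR adjusted p = 0.0206)). All 3 were above the 6 other mice in each Heavy mouse, and none of the 5 calls held in every fit with 1 mouse left out. Of 14 FGF pathway genes 1 was higher, the receptor gene *Fgfr2*, at 13, 14.7 and 7.15 CPM, 2.56, 2.68 and 1.54 CPM and 1.88, 2.12 and 1.22 CPM (2.35 (SE 0.32, edgeR adjusted p = 0.0066)), which held in every such fit and shares 314 exon bases on the same strand with *Ctbp2*.

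Of 27 Wnt genes 9 were higher and none lower (median 0.43). The ligand gene *Wnt7b* was at 22.1, 13.9 and 9.96 CPM in Heavy, 2.07, 1.78 and 2.31 CPM in Light and 0.513, 2.97 and 4.67 CPM in WT mice (2.89 (SE 0.52, edgeR adjusted p = 0.0109)), and *Wnt4*, a ligand made by adult beta-cells, at 91.3, 163 and 205 CPM, 101, 77.3 and 58.2 CPM and 116, 137 and 122 CPM (0.96 (SE 0.26, edgeR adjusted p = 0.0354)). *Tcf7l2*, the transcription factor of the pathway, was at 24.9, 27 and 19.6 CPM, 11.1, 9.62 and 13.3 CPM and 12.9, 17.1 and 13.9 CPM (1.07 (SE 0.17, edgeR adjusted p = 0.00897)). For *Wnt7b* and *Tcf7l2* Heavy mice were above all 6 others, while for *Wnt4* Heavy mouse 1 lay within the Light range. The target gene *Axin2* was not called, at 1.44, 3.04 and 1.63 CPM in Heavy and 1.99, 2.28 and 2.56 CPM in Light (-0.18 (SE 0.31, edgeR adjusted p = 0.742)). Of 24 TGF-beta, activin and BMP genes 6 were higher and none lower (median 0.34), with *Bmp7*, a ligand, at 14.6, 7.17 and 8.06 CPM against 1.42, 1.39 and 1.79 CPM (2.69 (SE 0.49, edgeR adjusted p = 0.0111)) and *Id2*, a BMP target, at 118, 99.8 and 76.9 CPM against 49.7, 59.3 and 54.1 CPM (0.85 (SE 0.18, edgeR adjusted p = 0.0155)).

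In insulin and IGF signalling 3 of 14 genes were higher and 2 lower. *Irs2*, the adaptor that carries insulin and IGF signals in beta-cells, was at 68.2, 77.5 and 76.3 CPM in Heavy, 46.2, 34.7 and 27 CPM in Light and 50.8, 53.9 and 52.7 CPM in WT mice (1.04 (SE 0.16, edgeR adjusted p = 0.00785)), with Heavy above all 6. *Igfbp5*, which binds IGF outside the cell, was at 51.1, 27.1 and 39.5 CPM, 103, 76.5 and 91.4 CPM and 80.4, 82.3 and 65.9 CPM (-1.20 (SE 0.20, edgeR adjusted p = 0.00897)), with Heavy below all 6. Both calls held in every fit with 1 mouse left out. The receptor genes *Igf1r* (-0.32 (SE 0.17, edgeR adjusted p = 0.233)) and *Insr* (0.51 (SE 0.15, edgeR adjusted p = 0.0518), DESeq2 adjusted p = 0.0405) were not called by edgeR.

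Inflammatory genes divided. Of 15 NF-kappaB genes 4 were higher and none lower, among them the feedback genes *Nfkbia*, at 109.7, 87.1 and 89.3 CPM in Heavy against 53.3, 53.8 and 63.5 CPM in Light (0.75 (SE 0.14, edgeR adjusted p = 0.0111)), and *Tnfaip3*, at 33.8, 13.3 and 14.5 CPM against 6.98, 5.65 and 6.92 CPM (1.65 (SE 0.34, edgeR adjusted p = 0.0142)). Of 18 interferon and MHC class I genes 7 were lower and none higher (median -0.56). *H2-D1*, an MHC class I chain, was at 915, 835 and 841 CPM, 1209, 1290.3 and 1281 CPM and 1146, 1147 and 980.2 CPM (-0.55 (SE 0.11, edgeR adjusted p = 0.014)), and *Ifit1*, an interferon-induced gene, at 5, 3.28 and 4.8 CPM, 16.7, 19 and 15.1 CPM and 11.4, 5.26 and 4.67 CPM (-1.94 (SE 0.31, edgeR adjusted p = 0.00861)). For *H2-D1* Heavy was below all 6 others, while for *Ifit1* WT mice 2 and 3 lay with Heavy. MHC class I genes are similar in sequence and the cross carries the haplotypes of both parent strains, so the counting may share reads among them.

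Mitosis genes were low in every mouse and leaned higher in Heavy. Of 19 mitosis genes 5 were higher and none lower, with 18 of 19 above 0 (median 1.22). *Top2a*, the topoisomerase of dividing cells, was at 2.98, 1.95 and 3.08 CPM in Heavy, 0.855, 0.595 and 0.598 CPM in Light and 2.39, 1.27 and 3.45 CPM in WT mice (1.94 (SE 0.41, edgeR adjusted p = 0.0165)), and *Mki67*, the gene of the Ki-67 antigen, at 1.06, 1.7 and 1.18 CPM, 1.5, 0.0991 and 1.11 CPM and 1.2, 0.424 and 1.34 CPM (0.46 (SE 0.63, edgeR adjusted p = 0.668)). The list summed to 50.5, 39.2 and 55 CPM in Heavy, 26.7, 31.5 and 28.8 CPM in Light and 33.6, 31 and 54.7 CPM in WT mice, so the morphs did not overlap and WT mouse 3 lay within the Heavy range. None of the 5 calls held in every fit with 1 mouse left out. DNA replication gave 1 higher of 16, *Mcm7* (0.55 (SE 0.12, edgeR adjusted p = 0.0198)), with *Mcm2* not called (-0.03 (SE 0.17, edgeR adjusted p = 0.927)), and G1 regulators 2 higher of 18, where the D-type cyclin genes *Ccnd1* (-0.03 (SE 0.13, edgeR adjusted p = 0.913)) and *Ccnd2* (0.09 (SE 0.13, edgeR adjusted p = 0.675)) were not called. *Cdk6*, the kinase they bind, was one of the 2 (1.94 (SE 0.45, edgeR adjusted p = 0.0207)).

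Several lists gave 1 or 2 calls each. Of 80 ribosomal protein genes 1 was lower and none higher, of 34 proteasome genes 1 lower and none higher, and of 18 histone deacetylases and sirtuins 1 lower, *Hdac9*, at 2.31, 5.72 and 4.07 CPM in Heavy, 15.2, 12.6 and 14.9 CPM in Light and 14.6, 6.54 and 5.56 CPM in WT mice (-1.84 (SE 0.38, edgeR adjusted p = 0.0148)). Of 9 acetyltransferases *Crebbp* alone was called (0.46 (SE 0.10, edgeR adjusted p = 0.0203)). Of 18 imprinted genes 2 were lower. *Ndn*, a growth regulator, was at 36.6, 36.2 and 44.1 CPM in Heavy, 65.1, 59.7 and 68 CPM in Light and 67.5, 61 and 52.8 CPM in WT mice (-0.72 (SE 0.12, edgeR adjusted p = 0.00861)), and *Blcap*, in whose intron *Nnat* lies, at 60.8, 55.9 and 51.2 CPM, 76.7, 67.1 and 70.4 CPM and 65.4, 62.7 and 67.6 CPM (-0.35 (SE 0.09, edgeR adjusted p = 0.0299)). Heavy mice were below all 6 others for *Ndn* and *Blcap*. The nuclear RNA *Malat1* was at 2685, 2938 and 3344 CPM and 3959, 2998 and 2315 CPM (-0.05 (SE 0.20, edgeR adjusted p = 0.899)), and *Neat1* was lower (-0.46 (SE 0.13, edgeR adjusted p = 0.0441)).

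Outside these lists, genes with the largest fold changes and at least 50 counts on average were read by rule. *Car2*, carbonic anhydrase 2, was at 47.6, 21.2 and 46.8 CPM in Heavy, 1.07, 1.69 and 1.28 CPM in Light and 1.11, 1.1 and 5.23 CPM in WT mice (4.86 (SE 0.54, edgeR adjusted p = 0.00612)). *Pzp*, a protease inhibitor of plasma, was at 7.22, 20.1 and 5.7 CPM, 0.356, 0.595 and 0.854 CPM and 0.256, 0.849 and 0.668 CPM (4.18 (SE 0.57, edgeR adjusted p = 0.0066)). In both genes the WT mice were low and Heavy alone was high. *Ctse*, a gastric protease, at 44.6, 17.6 and 14.1 CPM, 1.42, 0.793 and 0.512 CPM and 0.427, 7.05 and 21.6 CPM (4.75 (SE 1.01, edgeR adjusted p = 0.0164)), and *Aldh1a1*, a retinaldehyde dehydrogenase, at 29.4, 17.4 and 12.8 CPM, 1.35, 1.98 and 0.939 CPM and 1.28, 16.2 and 9.68 CPM (3.81 (SE 0.72, edgeR adjusted p = 0.0119)), instead had WT mice 2 and 3 raised toward Heavy. Among the decreased, *Ttyh1*, a chloride channel gene, was at 25.4, 14.8 and 19 CPM, 71.2, 114 and 112 CPM and 64.4, 36.6 and 34.8 CPM (-2.32 (SE 0.28, edgeR adjusted p = 0.00612)), and *Fgb*, a fibrinogen chain, at 3.75, 0.73 and 0.996 CPM, 14.9, 17.8 and 10.4 CPM and 5.04, 9.25 and 6.45 CPM (-2.94 (SE 0.47, edgeR adjusted p = 0.00838)). WT mice lay between the morphs for both. By difference in CPM, the called gene with the largest rise was *Lars2*, a mitochondrial leucine tRNA synthetase, at 2785, 3447 and 2628 CPM against 1684, 1882 and 2037 CPM (0.66 (SE 0.17, edgeR adjusted p = 0.0273)). A ribosomal RNA gene model, *CT010467.1*, was also higher, at 1032, 1560 and 913 CPM against 566, 715 and 724 CPM (0.81 (SE 0.23, edgeR adjusted p = 0.0449)). It shares 923 exon bases with *AY036118* on the same strand and 1822 with *Gm42418* on the other. What the libraries held of ribosomal RNA was not tested as a part of the values of this gene or of *Lars2*. *Cd63*, a membrane protein of lysosomes and exosomes, was at 906, 704 and 709.5 CPM, 1463, 1624 and 1635 CPM and 1409.7, 1002 and 953 CPM (-1.03 (SE 0.17, edgeR adjusted p = 0.00897)), and *H3f3b*, for histone H3.3, at 835, 713 and 699 CPM, 362, 446 and 446 CPM and 339, 462 and 440.1 CPM (0.84 (SE 0.14, edgeR adjusted p = 0.00905)).

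At 3 weeks, 3 Heavy-like and 3 Light-like mice gave log2 fold changes that are set beside the 6-week values without a test. The study describes these mice as separating by their islet transcriptomes before the morphs can be told apart by phenotype, so the group labels at this age may rest on expression itself, and the 3-week values are not independent evidence of a direction. The Heavy-like group held 2 females and 1 male and the Light-like group 3 males, so the groups also differ in sex. The 2 ages are different mice and share no control. Of the genes called higher at 6 weeks 1019 were tested at 3 weeks, and 704 were above 0 with a median of 0.12. Of those called lower 1036 were tested, and 564 were below 0 with a median of -0.01. Over all 16257 genes tested at 3 weeks the median was 0.00. The secretory lists were close to 0 at 3 weeks. All 18 called ER chaperones were below 0, with a median of -0.10 against -0.62 at 6 weeks, as were all 11 called translocon genes (median -0.07), all 9 glycosylation genes (-0.06) and all 13 Golgi transport genes (-0.04). These signs depended on the fit. With total counts as the scaling, which moved the median of all genes at 3 weeks to 0.06, 17 of the 18, 7 of the 11, 5 of the 9 and 5 of the 13 were below 0, and with sex as a covariate 16, 8, 4 and 5. *Hspa5* was at -0.10 at 3 weeks and -1.07 at 6 weeks. Of the 16 called immediate early genes tested at 3 weeks 15 had their 6-week sign, with a median of 0.61 against 1.56, and *Egr1* was at 2.92 against 2.51 and *Fos* at 2.94 against 3.81. All 9 called epithelial adhesion genes and all 5 EGF family genes were also above 0.

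Endocrine marker genes mostly had the other sign at 3 weeks. All 10 beta-cell markers were below 0, with a median of -0.15, against 10 of 10 above 0 at 6 weeks. None of the 5 called alpha-cell markers was below 0 at 3 weeks, and 2 were with sex as a covariate, with *Gcg* at 0.13 against -1.32, and *Sst* was at 0.15 against -1.25. Glycolysis genes shared the 6-week sign in 2 of 9, in 4 with sex as a covariate and in 0 with total counts as the scaling. *Pam* was at 0.30 against -0.80 and *Mlxipl* at -0.17 against 1.27. Acinar markers were above 0 in 19 of 20 tested at 3 weeks, with a median of 1.01, and the part of exocrine tissue in the 3-week values was not tested.

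**Figure D5:**
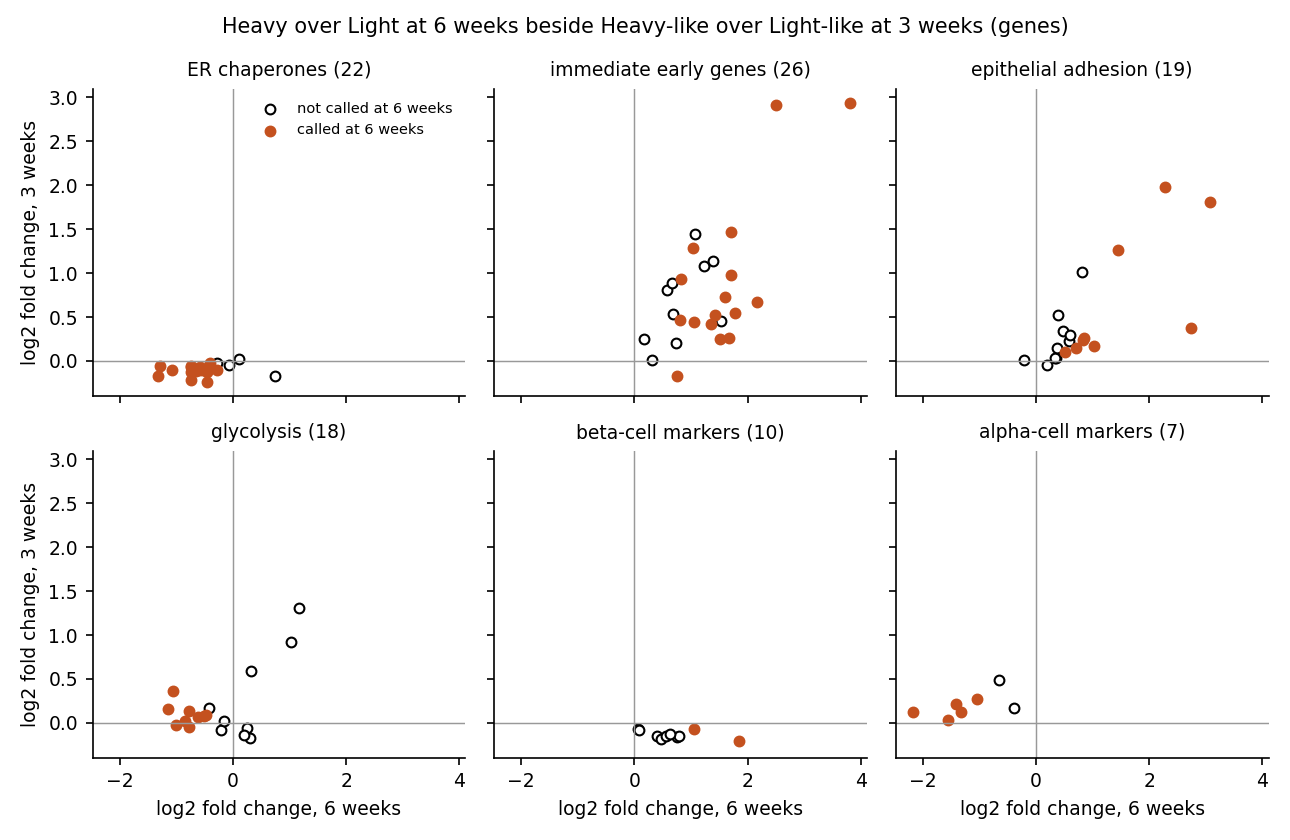
Log2 fold change at 6 weeks (Heavy over Light, horizontal) and at 3 weeks (Heavy-like over Light-like, vertical) of each gene of 6 lists, with the number plotted in brackets, filled where called at 6 weeks. ER chaperones lie left of and just under 0, immediate early genes in the upper right, and beta-cell markers to the right of and below 0.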

How the data were processed

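RNA of whole islets was made into SMART-Seq v4 and Nextera DNA Flex libraries and sequenced paired-end. The authors aligned reads to GRCm38.p6 in the snakePipes RNA-seq workflow and deposited raw counts per gene, one table per age. The aligner, the counter and its use of strand are not given in the sources used here. Groups were taken from the sample labels. A single edgeR fit (version 4.0.16, R 4.3.3) over all 9 mice of 6 weeks, on genes kept by filterByExpr and with TMM scaling, gave the quasi-likelihood test of Heavy against Light with Benjamini-Hochberg adjustment. The 3-week mice were fitted apart in the same way. DESeq2 1.42.0, other scalings, filters and thresholds, and leaving out each mouse were alternatives. Shares of counts were compared by exact two-sided permutation.

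The gene lists, and the comparison itself, were chosen with earlier results of these data known. Named genes were, per list, its first 2 members and up to 4 members of lowest adjusted p each way, and over all genes the 12 called genes with the largest fold each way (at least 50 counts on average) and the 10 with the largest CPM difference. CPM and fold changes were computed here. Other list members were named after their values were seen. Some members of the lists are not reported here by name. The numbers that mice share across groups do not mark pairs: same-numbered mice are different animals, and their deviations from the group means correlated at -0.301, -0.026 and -0.0936. The scripts were tested on simulated counts.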

Additional observations from a re-analysis of the deposited data

Results flagged for a closer look

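Of the 274 named genes called at 6 weeks, 22 had the morphs apart at both ages but in opposite directions. In these, every Heavy mouse lay on one side of every Light mouse at 6 weeks. At 3 weeks every Heavy-like mouse lay on the other side of every Light-like mouse. The share of all genes tested with this pattern was not counted. Separation of 3 against 3 mice in either direction has an exact permutation p of 0.1. The count of 22 is therefore not read as a result about these genes. The difference between the ages was not tested, the sexes of the 3-week groups differ, the study describes the 3-week groups by their transcriptomes, and genes were searched for this pattern, so that some would meet it by chance. Each gene is given with its log2 fold change at 6 weeks and then at 3 weeks.

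Higher at 6 weeks and lower at 3 weeks were the beta-cell genes *Mafa* (1.84 and -0.21), *Mlxipl* (1.27 and -0.17) and *Trpm5* (0.83 and -0.35). The same held for *Xbp1* of the ER stress response (0.54 and -0.06), *Lars2* (0.66 and -0.21) and the gut lectin gene *Lgals4* (0.99 and -0.31).

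Lower at 6 weeks and higher at 3 weeks were the granule genes *Pam* (-0.80 and 0.30) and *Pdyn* (-2.19 and 1.19), the metallothionein genes *Mt1* (-1.62 and 0.55) and *Mt2* (-1.70 and 0.62), and the glycolysis genes *Pfkp* (-1.06 and 0.36), *Gpi1* (-0.47 and 0.10) and *Tpi1* (-0.77 and 0.14). The acinar elastase gene *Cela1* (-2.22 and 0.70), the secreted plasma proteins *Serpina3n* (-2.31 and 2.15), *Serpina7* (-3.68 and 0.65) and *Fgb* (-2.94 and 1.19), and the endothelial gene *Egfl7* (-1.39 and 0.26) did the same. So did *Trib3* (-1.72 and 0.17), *H2-D1* (-0.55 and 0.14), the nuclear RNA *Neat1* (-0.46 and 0.36) and the ATP synthase gene *Atp5c1* (-0.32 and 0.07). At 3 weeks acinar markers were above 0 in 19 of 20 tested, and their part in these values was not tested.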

How the results depend on the processing

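No gene called in the main test had the opposite sign under any alternative. The 2209 calls became 3432 without a filter on low counts, 225 at an adjusted p under 0.01, 874 where a change of 1 or more on the log2 scale was also asked for, and 395 to 2839 when 1 mouse was left out, lowest without Light replicate 2 and highest without WT replicate 1. With the replicate block 1101 genes were called, and since same-numbered mice are different animals, this is not read as a weaker effect. Of 274 named genes called, 69 were called in every fit with 1 mouse left out, and 198 of them were not called without Light replicate 2.

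At an adjusted p under 0.01 the members called were 0 of the 5 alpha-cell markers, 0 of the 9 endothelial markers, 8 of the 18 ER chaperones and 4 of the 16 immediate early genes, and 3 ER chaperones had a log2 fold change of at least 1 in size. With 1 mouse left out these counts ran from 2 to 5 for alpha-cell markers, 4 to 11 for endothelial markers, 9 to 18 for ER chaperones and 4 to 18 for immediate early genes.

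With total counts as the scaling, which lowers the median gene, 13 of 51 list medians moved by more than the spread between mice and 1 turned, that of the acetyltransferases (0.11 to -0.01). The medians near 0 of ribosomal protein genes (0.06 to -0.04), deacetylases and sirtuins (0.03 to -0.08) and imprinted genes (0.01 to -0.11) changed sign too. So did those of glucose sensing, channels and receptors (0.10 to -0.02) and of pyruvate entry and the tricarboxylic acid cycle (0.01 to -0.11). The medians of docking genes (-0.03 to -0.14) and mitochondrially encoded genes (0.30 to 0.19) moved by over 1.5 times. Without Heavy replicate 1, 11 list medians moved and 1 turned, that of the progenitor genes. At 3 weeks the medians of the genes called higher and lower at 6 weeks became 0.17 and 0.04, from 0.12 and -0.01. Leaving out 1 mouse moved the median of the progenitor genes from -0.06 to 1.03 and the fitted value of *Nnat*, which is no measure of a fold at 0 to 3 counts, from -0.58 to 0.54.

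Shares of counts with no clear difference changed sign. With counts without *Ins1* and *Ins2* as the total, the Heavy minus Light difference was 0.333 percentage points for *Iapp* and 0.0516 for ribosomal protein genes. With 1 mouse left out it ran from -0.314 to 0.155 for *Iapp*, -0.0907 to 0.0393 for ribosomal protein genes, -0.563 to 0.645 for acinar markers, and -149 to 116 for *Gcg* per 100 counts of *Sst*. The cause of these changes was not tested.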
